A study of Mus musculus with 12 samples.

Results

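Arachidonic acid (AA), the lipid precursor of prostaglandins and leukotrienes, was given to T cells, and its effect on messenger RNA was compared between a pair of populations from mouse liver. Both populations carry CD3 but neither CD4 nor CD8, so they are called double negative (DN) T cells. One bears the αβ T cell receptor (TCR) and the other the γδ receptor. The quantity described here is the difference of AA effects: the log2 fold change with against without AA in γδ libraries minus that in αβ libraries. It draws on all 12 of the 12 libraries of the series, 3 in each of 4 groups, and on 22107 genes tested of 55401 in the table. A positive difference means that AA went with a higher level, or a smaller loss, in γδ than in αβ libraries.

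All cells came from adult C57BL/6 mice and were sorted from liver as live CD45+ CD3+ NK1.1− CD4− CD8− cells with either receptor, and no genotype or other treatment is given. The groups were TCRαβ cells without AA, TCRαβ cells with AA for 48 h, TCRγδ cells without AA and TCRγδ cells with AA for 48 h. The labels do not say whether cells without AA were cultured for the same time, so AA and culture cannot be told apart within a population. They also do not say whether replicates were separate animals or pools, so the p-values reflect the spread among these libraries, part or all of which may be technical. The study addresses DN T cells in fatty liver disease that is not caused by alcohol.

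As background, AA reaches T cells as a free fatty acid and as prostanoids made by neighbouring cells, which act on receptors such as EP4 and the prostacyclin receptor. In T cells the NF-κB factors are held in the cytoplasm by inhibitors of the IκB family, some of which are themselves made from NF-κB target genes. T-bet and GATA3 direct the type 1 and type 2 programmes, and CCR7 guides lymphocytes and dendritic cells to lymph nodes.

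Library totals ran from 6036487 to 30548253 counts, and αβ with AA was the shallowest group. Levels are given as CPM, counts relative to the library total. Correlations of log2 CPM between replicates ran from 0.560 to 0.691 in αβ with AA and from 0.803 to 0.899 in the other groups. Trdc, the δ chain constant region, went against the label in both libraries numbered 3 without AA: per count of the CD3 genes it stood at 0.354 in the one labelled αβ and at 0.0292 in the one labelled γδ. The αβ libraries with AA also lay at 0.131 to 0.358 by this ratio, while replicates 1 and 2 of αβ without AA lay at 0.0178 and 0.0243. The CD3 genes together, the defining markers of the sort, were present in every library, at 40.7 to 233 CPM in αβ with AA and 208 to 683 CPM elsewhere. Macrophage and monocyte genes made up 0.283% to 3.96% of the counts of a library. List medians and the differences of most named genes were also taken without both libraries numbered 3, and that value stands beside a printed one that it turned or moved by over 1.5 times.

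No gene passed the test for the difference of AA effects. By edgeR's quasi-likelihood test, adjusted by Benjamini and Hochberg over all genes, the smallest adjusted p was 0.211, and 0 of 22107 genes (0%) lay under 0.05. At an unadjusted p under 0.05 there were 2117 genes (9.58%), of which 854 (3.86% of those tested) had the higher effect in γδ and 1263 (5.71%) the lower. With DESeq2's size factors this split was 481 and 1497, and with library size alone 579 and 1345; these scalings put the median difference of all genes at −0.40 and −0.23 in place of −0.08. The split went the other way, to 815 higher and 357 lower, with the replicate number as a block within each population, and to 391 and 279 with a filter of 5 CPM in 3 libraries. DESeq2 itself called 321 genes, 108 higher and 213 lower in γδ, and edgeR without a filter on low counts called 217. The genes and lists below are therefore described by their values, and none of them is a call.

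The 854 genes with the higher effect in γδ and the 1263 with the lower effect were of different expression. The first had a median of 114 CPM in their highest group, with a median AA effect of −1.04 in αβ and 0.72 in γδ on the log2 scale. The second had a median of 5.07 CPM in their highest group, and 73.1% of them had no count in at least one group, against 15.1% of the first and 17.1% of all tested. Effects of opposite sign were found for 82.6% of the first, 96.4% of the second and 46.2% of all genes tested. Picking genes by the difference of the effects by itself favours opposite signs and medians on opposite sides of 0. These values therefore describe the picked genes and do not show that responses were opposed. Among the 2832 genes with at least 100 CPM in their highest group, 16.0% had the higher effect in γδ at an unadjusted p under 0.05 and 0.671% the lower. Among the 5582 genes at 5 to 20 CPM the shares were 1.15% and 9.42%. The median SE of the difference was 0.50 in the first of these strata and 2.56 in the second. The excess in one direction among abundant genes was smaller with DESeq2's size factors, at 7.51% and 2.56%, and without both libraries numbered 3, at 7.99% and 2.21%.

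**Figure D1:**
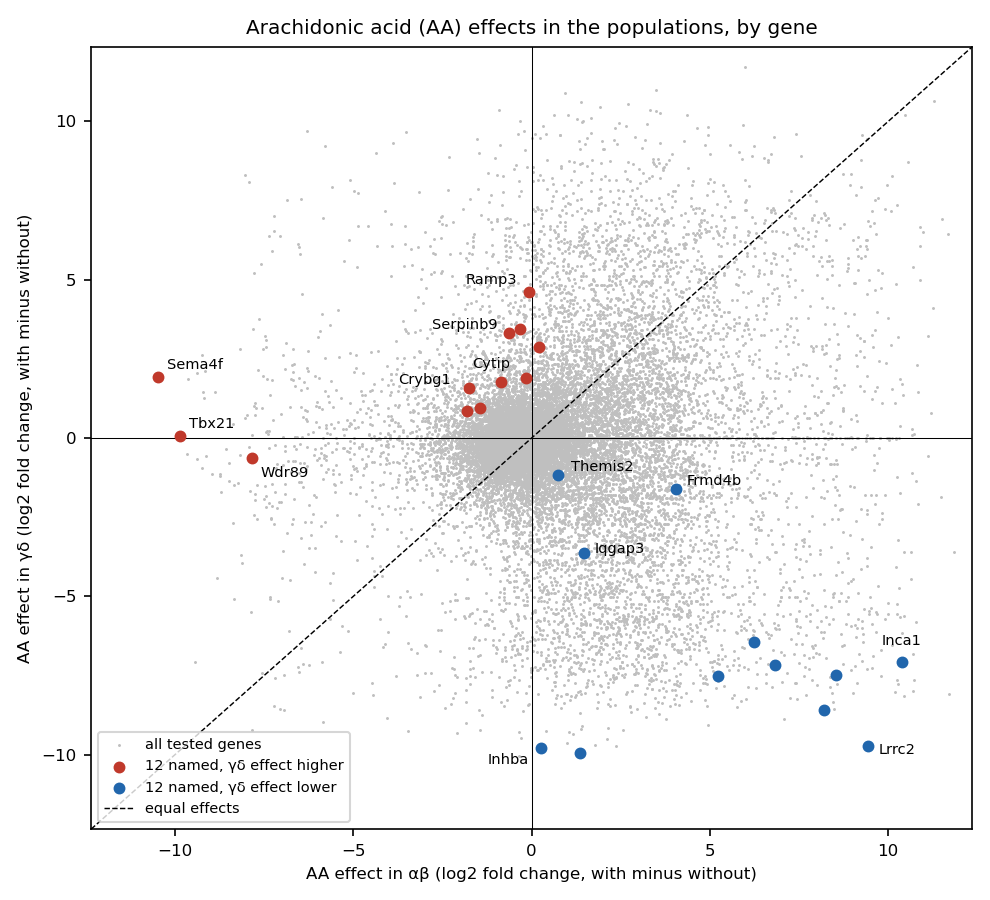
AA effect in γδ libraries (vertical axis) against AA effect in αβ libraries (horizontal axis), as log2 fold changes, for 22107 genes in grey; red and blue mark the 12 named genes in each direction and the dashed line equal effects. The named genes were picked by the difference, so the red genes lie above the line and the blue genes below it by selection. The red genes lie mostly to the left of 0 and the blue genes to the right of 0.

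**Figure D2:**
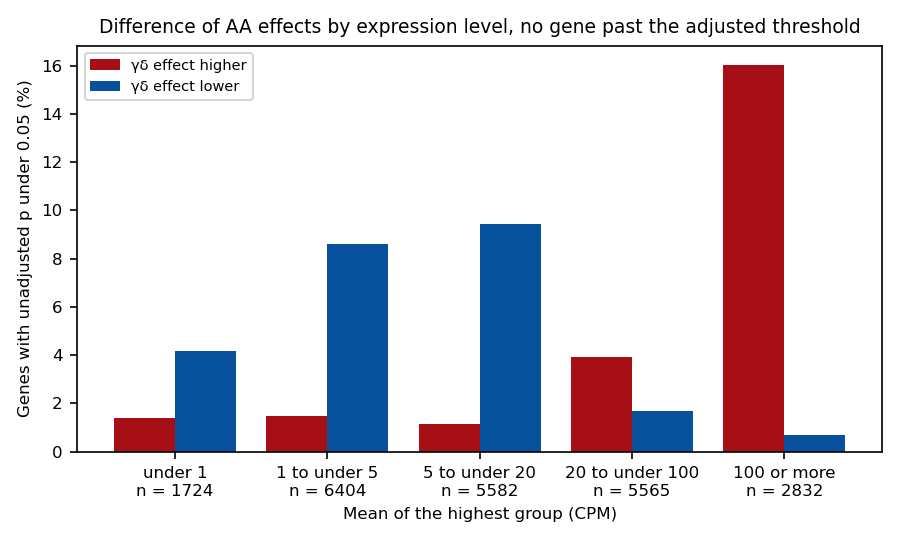
Percent of genes with an unadjusted p under 0.05 for the difference of AA effects (vertical axis), by the mean CPM of the highest group (horizontal axis), with red for a higher and blue for a lower effect in γδ. Lower effects prevail up to 20 CPM and higher effects above, reaching 16.0% at 100 CPM or more; none passed the adjusted threshold.

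Across genes the effects in the populations showed almost no correlation, with a Pearson correlation of 0.000607 and a Spearman correlation of 0.0205 over 22107 genes, which are not independent replicates. In 144 genes (0.651% of those tested) the libraries with AA lay wholly on one side of those without in αβ and wholly on the other side in γδ. Of these, 95 (0.430%) were higher with AA in γδ and lower in αβ, and 49 (0.222%) the reverse. Libraries lay apart in the same direction in both populations in 322 genes (1.46%), of which 84 (0.380%) were higher and 238 (1.08%) lower with AA. These counts moved with single libraries: without γδ without AA replicate 2 they were 244 and 239 in opposite directions, and 119 and 304 in the same. With 3 libraries a group, some genes lie apart in both populations by random spread alone. How many would do so was not worked out, so these counts do not show that responses were opposed.

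Crybg1, Nfkbib and Phactr2 were the genes with the smallest p whose libraries lay apart in opposite directions, higher in γδ and lower in αβ. Crybg1 (ENSMUSG00000019866.15), a crystallin-domain gene, stood at 49.0, 33.2 and 43.7 CPM in αβ without AA and at 14.4, 20 and 8.61 CPM with AA. In γδ it stood at 22.4, 38.7 and 29.4 CPM without AA and at 88.0, 59.6 and 124 CPM with AA. Every αβ library with AA was below, and every γδ library with AA above, all of those without. Its difference was 3.32 ± 0.63 (SE), from an effect of −1.75 ± 0.44 in αβ and 1.57 ± 0.44 in γδ, with an adjusted p of 0.347 by edgeR. Phactr2 (ENSMUSG00000062866.16), a regulator of protein phosphatase 1 and actin, stood at 85.9, 134 and 50.3 CPM in αβ without AA and 36.3, 34.5 and 17.6 CPM with AA. Its γδ libraries held 57.1, 79.3 and 73.4 CPM without AA and 133, 140.4 and 115 CPM with AA. The groups did not overlap within either population, and the difference was 2.68 ± 0.53, with an adjusted p of 0.347. Stat4 (ENSMUSG00000062939.11), which carries the interleukin 12 signal, was at 111, 86.7 and 104 CPM in αβ without AA and 64.3, 49.6 and 34.0 CPM with AA. The γδ level was at 83.1, 148 and 78.0 CPM without AA and 294, 150.3 and 177 CPM with AA, where the lowest library with AA was close to the highest without. The difference of Stat4 was 2.22 ± 0.49, with an adjusted p of 0.422.

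Genes of the NF-κB pathway had the higher effect in γδ almost throughout. Of 20 members tested, 19 had a positive difference, against 48.0% of all genes, 8 had one at an unadjusted p under 0.05 and 0 passed over all genes. The median difference was 1.04 against −0.08 over all genes tested, from a median effect of −0.52 in αβ and 0.68 in γδ. Over all genes with at least 100 CPM the median was 0.46, and 16.0% had the higher effect in γδ at an unadjusted p under 0.05. With DESeq2's size factors it was 0.70 with 16 members positive, and without both libraries numbered 3 it was 1.21 with 20. Among the inhibitors, Nfkbib (ENSMUSG00000030595.15), which encodes IκBβ, stood at 117, 101 and 125 CPM in αβ without AA and 34.6, 63.3 and 43.6 CPM with AA, and at 73.7, 104 and 69.4 CPM in γδ without AA and 165, 148 and 176 CPM with AA. The groups lay apart in opposite directions, with a difference of 2.40 ± 0.46 and an adjusted p of 0.347.

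The promoters of Nfkb2, Nfkbia and Rel are shown because these NF-κB genes had both a large difference and a κB match in the window from 250 bases before to 50 after the listed start. The sequences are RefSeq's on GRCm38.p6, printed 5′ to 3′ along the gene, with the match in capitals. The κB letters searched were GGG, then any pair of bases, then TTTCC, on both strands. Letters of AP-1 (TGANTCA) and T-box (TCACACC) sites were searched too, and all were chosen with the results known.
Nfkb2, chr19:46304487-46304786, plus strand: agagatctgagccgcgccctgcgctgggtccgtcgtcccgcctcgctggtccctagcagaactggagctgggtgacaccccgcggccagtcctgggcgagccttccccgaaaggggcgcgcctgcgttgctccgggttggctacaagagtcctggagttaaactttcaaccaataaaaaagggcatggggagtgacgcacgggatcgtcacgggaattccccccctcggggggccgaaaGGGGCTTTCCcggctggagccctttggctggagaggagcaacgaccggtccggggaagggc
Nfkbia, chr12:55492598-55492897, minus strand: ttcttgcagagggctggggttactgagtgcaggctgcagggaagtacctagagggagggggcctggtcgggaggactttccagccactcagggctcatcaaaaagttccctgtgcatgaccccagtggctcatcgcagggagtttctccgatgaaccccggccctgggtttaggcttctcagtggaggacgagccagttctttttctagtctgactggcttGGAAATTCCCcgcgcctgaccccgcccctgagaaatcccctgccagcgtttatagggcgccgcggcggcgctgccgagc
Rel, chr11:23770920-23771219, minus strand: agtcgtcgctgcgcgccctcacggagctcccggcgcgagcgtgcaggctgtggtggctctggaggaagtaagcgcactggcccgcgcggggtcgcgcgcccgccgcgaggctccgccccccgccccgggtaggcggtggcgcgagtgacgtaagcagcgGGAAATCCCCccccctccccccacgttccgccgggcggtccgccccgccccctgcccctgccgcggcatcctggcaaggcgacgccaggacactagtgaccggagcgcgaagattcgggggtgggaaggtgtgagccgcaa
The matches begin at −11, −29 and −91 from the start, the first for the most upstream start listed for Nfkb2. Of 16 list members with a promoter in the table, 5 held a match (31.2%), against 287 of 13973 tested genes (2.05%). The others were Traf2 and Tnfaip3. A match is a string of letters in this window and no measure of binding. A κB match was held by 0 of 11 named genes with the higher effect in γδ and 1 of 11 with the lower. Of genes with libraries apart in opposite directions, 2 of 70 higher in γδ held it (2.86%) and 3 of 36 of the reverse (8.33%). In the named genes, AP-1 letters were in 0 of 11 higher and 4 of 11 lower, against 7.48% of tested genes. T-box letters were in 2 of 11 higher and 1 of 11 lower, against 4.29%. Binding was not measured in this series.

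The genes behind these promoters differed between populations in this way. Nfkbia (ENSMUSG00000021025.8), which encodes IκBα, the main cytoplasmic inhibitor, was at 1233, 826 and 967 CPM in αβ without AA and 783, 471 and 497 CPM with AA. In γδ it was at 554, 972 and 506 CPM without AA and 1789, 1169.9 and 878 CPM with AA. The αβ groups did not overlap, the γδ groups did, and the difference was 1.87 ± 0.44 (unadjusted p 0.000772). Nfkb2 (ENSMUSG00000025225.15), the precursor of the non-canonical subunit p52, was at 213, 151 and 224 CPM in αβ without AA and 97.0, 155 and 60.3 CPM with AA, where replicate 2 overlapped. Its γδ libraries held 141, 228 and 114 CPM without AA and 458, 281 and 251 CPM with AA, without overlap. The difference was 2.12 ± 0.52. Rel (ENSMUSG00000020275.9), the c-Rel subunit of activated lymphocytes, differed through γδ, at 81.4, 187 and 84.1 CPM without AA and 543, 322 and 424 CPM with AA. Its αβ libraries overlapped, at 284, 226 and 136 and 227, 255 and 228 CPM, and its difference was 1.88 ± 0.51. Relb, the partner of p52, had a difference of 2.0 ± 0.58. Map3k14 (ENSMUSG00000020941.7), the kinase NIK that drives p52 processing, was opposed without overlap, at 35.9, 34.2 and 41.5 against 24.4, 30.0 and 11.4 CPM in αβ and 25.8, 57.9 and 44.0 against 229, 74.6 and 94.2 CPM in γδ, without and with AA. Its difference was 2.61 ± 0.68. Rela and the kinase genes Ikbkb and Chuk had differences of 0.62 ± 0.55, 0.20 ± 0.43 and 0.12 ± 0.70. Nfkbid was the member with a negative difference, at −0.20 ± 0.78. The adjusted p of these genes was 0.442 or higher by edgeR, apart from Nfkbib.

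**Figure D3:**
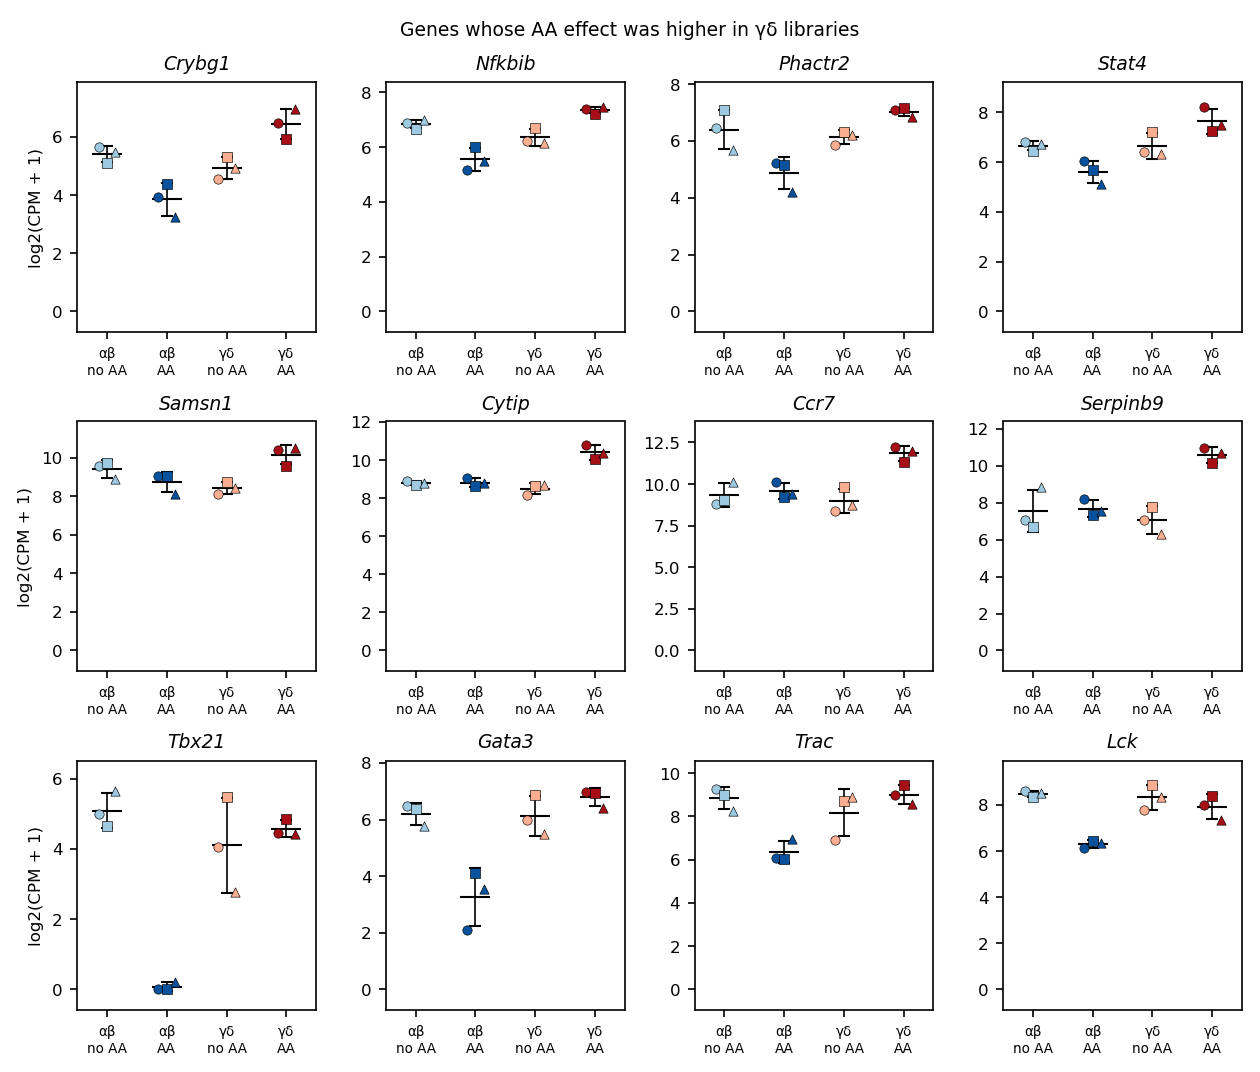
Level of 12 genes with the higher AA effect in γδ, as log2(CPM + 1) of all counts (vertical axis), by group (horizontal axis); points are libraries, with circle, square and triangle for replicates 1, 2 and 3, and bars are mean and SD. The upper row moves apart in both populations, the middle row mainly in γδ, and the lower row mainly in αβ.

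Genes of adhesion and migration had the higher effect in γδ, and for several the γδ libraries with AA stood high while the αβ groups overlapped. Of the 20 actin and migration genes tested, 20 had a positive difference and 10 an unadjusted p under 0.05, against 3.86% of all genes and 16.0% of those with at least 100 CPM, with a median of 0.86; with DESeq2's size factors 13 were positive and the median was 0.52. Cytip (ENSMUSG00000026832.12), a cytohesin partner that regulates leukocyte adhesion, was at 283, 403 and 411 CPM in γδ without AA and 1777, 1058 and 1306 CPM with AA. The αβ libraries held 470.2, 417 and 443 CPM without AA and 529, 391 and 436 CPM with AA. All γδ libraries with AA exceeded the other 9 libraries, and the difference was 2.04 ± 0.35 with an adjusted p of 0.211 by edgeR. Marcks (ENSMUSG00000069662.5), which binds actin and is phosphorylated by protein kinase C, was at 34.0, 48.2 and 49.1 CPM in γδ without AA and 309, 216 and 438 CPM with AA, against 56.5, 73.2 and 123 and 143, 110.2 and 88.1 CPM in αβ. Cytip and Marcks were the 2 genes (0.00905%) past the threshold for γδ alone, at an adjusted p of 0.0347, yet the difference of Marcks, 2.64 ± 0.51, had an adjusted p of 0.347. Passing in one population thus did not show that the effects differ.

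Several other genes with this shape are known from mature dendritic cells, and some of them also from T cells. Ccr7 (ENSMUSG00000037944.8) stood at 332, 888 and 425 CPM in γδ without AA and 4814, 2605 and 3986 CPM with AA, and at 439, 535 and 1128 and 1103, 594 and 677 CPM in αβ. The γδ groups did not overlap, the αβ groups did, and the difference was 2.83 ± 0.59. Fscn1 (ENSMUSG00000029581.14), the actin-bundling protein fascin, was at 45.6, 155 and 26.1 CPM in γδ without AA and 2445, 608 and 1142 CPM with AA. In αβ it was at 58.9, 30.8 and 357 and 331, 93.5 and 54.5 CPM, where replicate 3 without AA was the highest. Its difference was 4.42 ± 1.29, and 2.28 without both libraries numbered 3. Ccl22, a chemokine that binds CCR4, had a difference of 2.64 ± 0.56. Serpinb9 (ENSMUSG00000045827.10), an inhibitor of granzyme B, held 136, 219.8 and 78.5 CPM in γδ without AA and 2016, 1124 and 1683 CPM with AA, against 135, 103 and 457 and 291, 158 and 189 CPM in αβ. Its difference was 3.79 ± 0.75, and 2.52 without both libraries numbered 3. Ramp3 (ENSMUSG00000041046.7), a partner of calcitonin-family receptors, had 21.2, 38.8 and 23.0 CPM in γδ without AA and 924, 487 and 632 CPM with AA. In αβ it had 37.6, 12.4 and 142 and 90.9, 53.8 and 64.4 CPM, and the difference was 4.69 ± 0.91. Samsn1, an adaptor that restrains lymphocyte activation, and Prr5l, a partner of the kinase complex mTORC2, had differences of 2.60 ± 0.44 and 3.95 ± 0.79.

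The markers chosen for dendritic cells include Ccl22 and Fscn1, so their summed share is not independent of the genes above. The 13 genes of the list together made up 0.198% to 0.424% of the counts in γδ with AA, against 0.0305% to 0.0732% in γδ without AA. In αβ their share was 0.0490% to 0.146% without AA and 0.0425% to 0.0963% with AA, so γδ with AA lay above the other 3 groups. The median difference of the list was 1.70, with 9 members positive, 3 of these at an unadjusted p under 0.05, and 4 negative. Clec9a was at 0 in γδ with AA and Cd209a in γδ without AA. Among the costimulatory ligands, 13 of 16 had a positive difference, 6 of them at an unadjusted p under 0.05, with a median of 1.67. Over all genes tested, 48.0% had a positive difference, and 3.86% one at an unadjusted p under 0.05. The latter share was 16.0% among genes with at least 100 CPM. Cd40 (ENSMUSG00000017652.16), which receives help from CD40 ligand, was at 53.9, 48.2 and 49.0 CPM in γδ without AA and 291, 179.5 and 254 CPM with AA, against 68.3, 154 and 92.4 and 47.4, 154 and 54.8 CPM in αβ. Its difference was 2.71 ± 0.64, and that of Cd80, a ligand of CD28 and CTLA-4, was 2.85 ± 0.83. The part of dendritic cells in these differences was not tested. In bulk libraries, fewer cells of a type and less RNA per cell cannot be told apart.

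T cell receptor signalling genes and T helper regulators differed mainly through αβ, where their levels with AA were low. Tbx21 (ENSMUSG00000001444.2), which encodes T-bet, was at 30.8, 24.0 and 48.9 CPM in αβ without AA and at 0, 0 and 0.166 CPM with AA. The γδ level was at 15.7, 43.8 and 5.86 CPM without AA and 20.8, 27.8 and 20.3 CPM with AA, so the γδ groups overlapped. The αβ groups held 2668 and 1 counts, a ratio of 1166 with an exact 95% counting interval of 209 to 46055. The fitted difference, 9.91 ± 1.5, depends on the prior count for so low a group and had the smallest p of all genes (1.2e-05, adjusted 0.211). Sema4f (ENSMUSG00000000627.15), a semaphorin, had 7.73, 4.34 and 14.2 CPM in αβ without AA and no count with AA, at least 101-fold lower with a floor of 3 counts over the group. Its γδ libraries held 3.78, 13.3 and 3.34 CPM without AA and 12.7, 16.8 and 47.6 CPM with AA. Wdr89 (ENSMUSG00000045690.8), with WD repeats, was at 32.8, 27.5 and 35.0 CPM in αβ without AA and 0, 0.352 and 0 CPM with AA, and at 16.8, 28.7 and 49.2 and 12.5, 20.5 and 28.5 CPM in γδ. Gata3 (ENSMUSG00000015619.10) stood at 87.4, 82.6 and 53.1 CPM in αβ without AA and 3.34, 16.4 and 10.6 CPM with AA, and its γδ groups overlapped at 62.4, 117 and 44.3 and 126, 122 and 84.6 CPM. The difference of Gata3 was 3.55 ± 0.76, with an adjusted p of 0.398 by edgeR.

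Lck (ENSMUSG00000000409.14), a Src family kinase that phosphorylates the CD3 chains, was at 386, 319.5 and 365 CPM in αβ without AA and 68.3, 86.4 and 79.4 CPM with AA, and at 216, 469 and 324 and 258, 338 and 164 CPM in γδ. Lck, Tbx21 and Wdr89 were the 3 genes (0.0136%) past the threshold for αβ alone, and the difference of Lck was 1.91 ± 0.45 with an adjusted p of 0.442. Zap70 (ENSMUSG00000026117.10), the kinase recruited to the phosphorylated chains, had 363, 266 and 318 CPM in αβ without AA and 135, 33.3 and 109 CPM with AA, and 240.2, 437 and 309 and 388, 438 and 399.9 CPM in γδ. Its difference was 2.23 ± 0.57. Trac (ENSMUSG00000076928.5), the constant region of the α chain, stood at 606, 515 and 306 CPM in αβ without AA and 66.6, 63.9 and 122 CPM with AA. In γδ libraries, whose receptor does not use it, it stood at 119.7, 422 and 475 and 513, 694 and 380.4 CPM. The difference of Trac was 3.23 ± 0.67, and those of the β chain regions Trbc1 and Trbc2, near-identical copies whose counts may be split, were 1.76 ± 0.56 and 1.84 ± 0.54. Over the 25 proximal TCR genes 16 differences were positive (64%, against 48.0% of all genes). Of these, 7 had an unadjusted p under 0.05 (28% of the list, against 3.86% of all genes and 16.0% of those with at least 100 CPM). The median effect was −1.30 in αβ and −0.19 in γδ, and the median difference 0.67. Without both libraries numbered 3 the median difference was 0.33, with 3 positive at an unadjusted p under 0.05. With DESeq2's size factors it was 0.27, with 14 positive, 4 of them at an unadjusted p under 0.05. Cd3e was at 59.7, 55.0 and 141 CPM in αβ without AA and 23.0, 13.3 and 65.9 CPM with AA. Its difference was 1.38 ± 0.88 (0.52 without both libraries numbered 3). The CD3 genes summed to 208, 243 and 569 CPM in αβ without AA and 155, 40.7 and 233 CPM with AA. In γδ they summed to 683, 622 and 399 CPM without AA and 402, 559 and 304 CPM with AA. The summed levels overlapped in both populations. A smaller share of T cells in αβ with AA and less RNA of these genes per cell cannot be told apart.

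Cytokine receptor signalling showed the same orientation. Of 20 genes of the common γ chain and STAT5 list, 17 had a positive difference (85%, against 48.0% of all genes). An unadjusted p under 0.05 was found for 8 of them (40% of the list, against 3.86% of all genes and 16.0% of those with at least 100 CPM). The median effect was −0.92 in αβ and 0.25 in γδ. Cish (ENSMUSG00000032578.7), a feedback inhibitor induced by STAT5, was opposed without overlap, at 65.1, 41.8 and 53.7 against 9.68, 15.7 and 30.5 CPM in αβ and 21.7, 45.3 and 23.3 against 63.0, 56.7 and 55.4 CPM in γδ, without and with AA. Its difference was 2.54 ± 0.74. Socs2, another such inhibitor, differed through γδ, at 3.0, 6.92 and 2.34 CPM without AA and 71.2, 38.3 and 80.5 CPM with AA, and its difference was 4.55 ± 1.06. Stat5a and Stat3 had differences of 2.32 ± 0.84 and 1.82 ± 0.68, and Il2rb, a chain of the interleukin 2 and 15 receptors, 2.18 ± 0.73. Bcl2l1 (ENSMUSG00000007659.18), which encodes the survival protein BCL-XL, was at 261, 197 and 233 CPM in αβ without AA and 154, 105 and 74.7 CPM with AA, and at 124, 254 and 229 and 324, 248 and 315 CPM in γδ. The αβ groups lay apart, the γδ groups overlapped, and the difference was 1.79 ± 0.41.

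Further opposed genes had larger differences and wide errors. Tnfsf4 (ENSMUSG00000026700.4), which encodes OX40 ligand, was at 81.2, 75.6 and 61.8 CPM in αβ without AA and 0, 7.87 and 0 CPM with AA. In γδ it was at 61.0, 75.9 and 74.3 CPM without AA and 105, 98.8 and 176 CPM with AA. Its difference was 5.73 ± 1.5 with an adjusted p of 0.442 by edgeR; without αβ with AA replicate 2, it was 14.35 and past the threshold, a value that depends on the prior count, since the others of that group had no count. Cdkn2b (ENSMUSG00000073802.5), which encodes the cell cycle inhibitor p15, was at 0.0517, 5.01 and 0.0477 CPM in γδ without AA and 94.6, 32.6 and 196 CPM with AA, against 4.02, 6.14 and 3.73 and 0, 1.53 and 0 CPM in αβ. Agrn (ENSMUSG00000041936.18), the proteoglycan agrin, was at 0, 1.91 and 0.238 CPM in γδ without AA and 28.9, 21.4 and 116 CPM with AA, against 4.12, 9.91 and 6.74 and 0, 0.587 and 3.15 CPM in αβ. In both genes the γδ library numbered 2 without AA stood above the other γδ libraries without AA. Idi2, an isomerase of the isoprenoid pathway, Lif, a cytokine of the interleukin 6 family, and Gpr157, an orphan receptor, had differences of 5.73 ± 1.65, 9.31 ± 3.11 and 6.89 ± 2.71. Tmem150c and Rnaset2a, the latter with a near-identical copy, had 6.52 ± 2.32 and 11.86 ± 3.61. The last value depends on the prior count, since Rnaset2a had no count in αβ with AA, at least 39.8-fold lower than without. With single libraries left out some of these moved by over 1.5 times, Gpr157 to 12.67 without αβ with AA replicate 2, and Tmem150c to 10.26 and Rnaset2a to 19.62 without γδ without AA replicate 2.

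The reverse orientation, higher with AA in αβ and lower in γδ, held fewer abundant genes. Themis2 (ENSMUSG00000037731.5), a signalling adaptor known from B cells and macrophages, was at 84.8, 98.6 and 65.2 CPM in αβ without AA and 157, 152 and 159.7 CPM with AA. The γδ level was at 81.4, 48.1 and 117 CPM without AA and 41.9, 41.1 and 29.3 CPM with AA. The groups lay apart in opposite directions, with a difference of −1.93 ± 0.51. Macrophage and monocyte markers had a median effect of 0.40 in αβ and −0.95 in γδ. In the difference 18 of 19 tested members were negative, against 11503 of all 22107 genes. The median difference was −1.14, with 1 member negative at an unadjusted p under 0.05. It was −3.90 without both libraries numbered 3, with 13 such members, and −3.50 without αβ without AA replicate 3 alone. Of the B and plasma cell markers, 13 of 13 were negative, 0 of them at an unadjusted p under 0.05. Their median difference was −1.51, and −0.03 without both libraries numbered 3. The part of the markers of either list in the value of Themis2 was not tested. Iqgap3 (ENSMUSG00000028068.14), a scaffold linked to cell division, was at 14.8, 11.2 and 9.39 CPM in αβ without AA and 37.0, 20.3 and 50 CPM with AA. In γδ it was at 27.8, 8.41 and 25.1 CPM without AA and 3.17, 1.66 and 0.373 CPM with AA, again without overlap, and the difference was −5.11 ± 1.17. Frmd4b (ENSMUSG00000030064.16), a scaffold with a FERM domain, was at 2.17, 1.27 and 3.70 CPM in αβ without AA and 65.9, 21.4 and 48.7 CPM with AA, and at 11.8, 9.24 and 9.15 and 8.47, 0.980 and 0.799 CPM in γδ. Its difference was −5.66 ± 1.37. The adjusted p of these 3 genes was 0.442 by edgeR.

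Other genes of this orientation had groups without a count. Inca1 (ENSMUSG00000057054.11), an inhibitor of cyclin-dependent kinases, had no count in αβ without AA and 26.9, 4.64 and 0.166 CPM with AA, at least 246-fold higher, so the αβ level rested on replicates 1 and 2. The γδ level was at 8.80, 2.65 and 11.8 CPM without AA and 0, 0 and 0.160 CPM with AA, a ratio of 151 with a counting interval of 51.2 to 733. Lrrc2 (ENSMUSG00000032495.8), a leucine-rich repeat gene, had no count in αβ without AA or γδ with AA. Its level was 14.2, 0.587 and 1.33 CPM in αβ with AA and 13.2, 1.04 and 1.19 CPM in γδ without AA, mostly from replicate 1 of each. Inhba (ENSMUSG00000041324.14), a subunit of activin A, and Zfp820 (ENSMUSG00000069743.5), a zinc finger gene, had no count in γδ with AA. They were at least 105-fold and 126-fold lower there than in γδ without AA, and their αβ groups overlapped. Olfr652, Vmn1r11 and Vmn1r18, receptors of the nose, also belonged to the 12 genes with the smallest p in this orientation. Olfactory and vomeronasal receptors made up 154 of the 1263 genes with the lower effect in γδ and 4 of the 854 with the higher, and 655 of all tested. Summed over 1972 such genes, their level was 1776 to 6976 CPM in αβ with AA, against 86.6 to 947 CPM in the other groups. In αβ with AA replicate 3, 23.1% of counts fell on a pair of repeat genes. With the repeat genes left out, 0 of 22074 genes passed by edgeR. At an unadjusted p under 0.05, 789 then had the higher and 1290 the lower effect in γδ. Beyond this, the part of these features in the low-level differences was not tested.

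**Figure D4:**
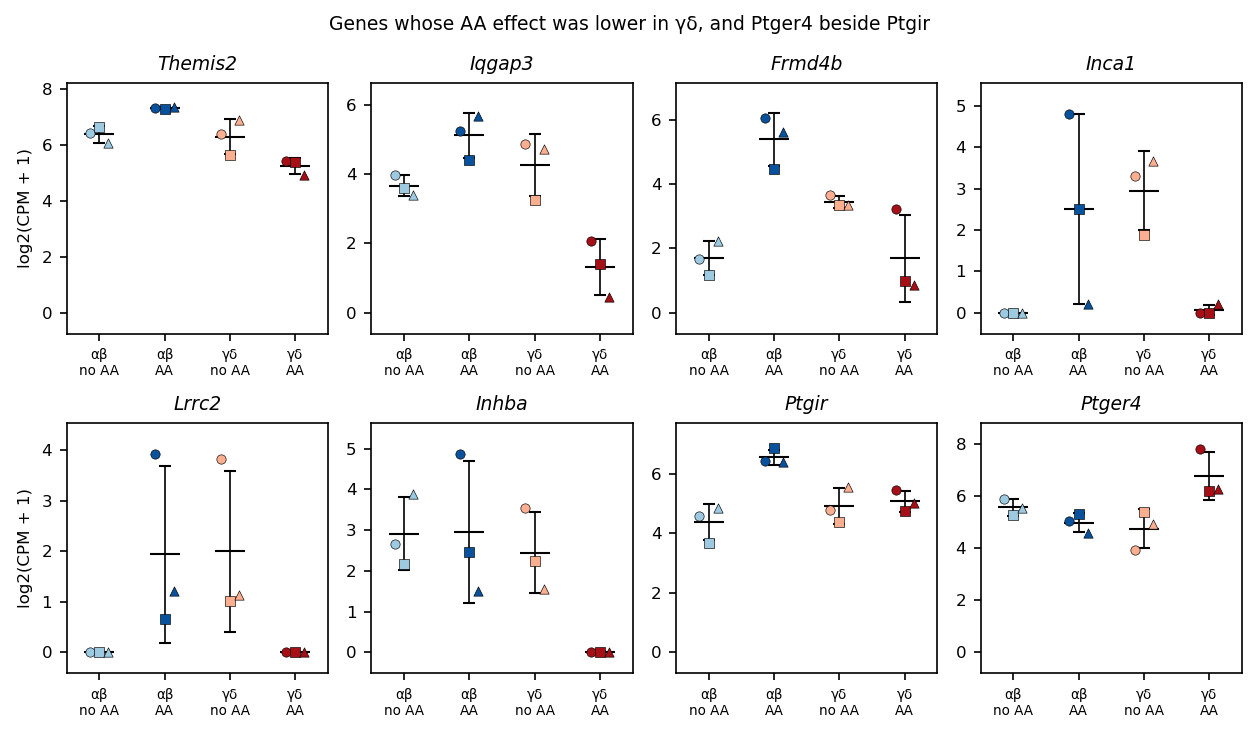
Level of 7 genes with the lower AA effect in γδ, and of Ptger4 beside Ptgir, as log2(CPM + 1) of all counts (vertical axis), by group (horizontal axis); points are libraries, with circle, square and triangle for replicates 1, 2 and 3, and bars are mean and SD. Themis2, Iqgap3 and Frmd4b stand high in αβ with AA, while Inca1, Lrrc2 and Inhba lie at or near 0 in γδ with AA.

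Receptors for prostanoids, the products of AA, showed one gene on either side. Ptger4 (ENSMUSG00000039942.15), which encodes the prostaglandin E2 receptor EP4, was at 14.1, 40.8 and 29.1 CPM in γδ without AA and 224, 72.8 and 76.0 CPM with AA. In αβ it was at 58.8, 37.1 and 45.8 and 32.2, 38.4 and 23.2 CPM. The γδ groups lay apart, the αβ groups overlapped, and the difference was 2.92 ± 0.71 (unadjusted p 0.00103, adjusted 0.442 by edgeR). Ptgir (ENSMUSG00000043017.9), the prostacyclin receptor, had the opposite shape, at 22.9, 11.9 and 27.5 CPM in αβ without AA and 84.7, 114 and 83.3 CPM with AA. In γδ its groups overlapped, at 26.4, 19.9 and 46.0 and 42.8, 26.0 and 31.4 CPM, and the difference was −1.92 ± 0.66 (unadjusted p 0.0115). Of 10 prostanoid and leukotriene receptors tested, 5 differences were positive and 5 negative. Their median of 0.17 had no stable sign, at −0.16 with DESeq2's size factors, −0.44 without both libraries numbered 3, and −0.45 to 1.66 with 1 library left out. Ptger2, the EP2 receptor, had a difference of −0.10 ± 1.23. Among 30 genes that release or convert AA, 14 differences were positive, 0 had an unadjusted p under 0.05 in either direction and the median was −0.21 (−0.11 without both libraries numbered 3). Ptgs2, the inducible cyclooxygenase, had a difference of −0.42 ± 1.99, an error larger than the difference itself.

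Among metabolic genes, cholesterol synthesis and glycolysis lay on the side of the higher effect in γδ and mitochondrially encoded genes on the other. All 24 cholesterol synthesis genes tested had a positive difference, 4 at an unadjusted p under 0.05, with a median effect of −0.86 in αβ and 0.03 in γδ. The 4 are 16.7% of the list, close to the 16.0% of all genes with at least 100 CPM. With DESeq2's size factors 21 differences were positive, 0 at an unadjusted p under 0.05, and the median difference was 0.68 in place of 1.04. Sqle, squalene epoxidase, had a difference of 1.10 ± 0.43. For glycolysis and hypoxia genes, 25 of 28 differences were positive and 10 had an unadjusted p under 0.05, against 3.86% of all genes and 16.0% of those with at least 100 CPM, with a median of 0.83. With DESeq2's size factors the median was 0.45 and 2 of 28 lay under 0.05, and without both libraries numbered 3 there were 3. Of all 22107 genes tested, 11503 had a negative difference, 5.71% of all at an unadjusted p under 0.05. The 12 mitochondrially encoded genes tested all had a negative difference, 2 at an unadjusted p under 0.05, with a median of −0.81. One of them, mt-Nd5 (ENSMUSG00000064367.1), a subunit of complex I, was at 557, 455 and 294 CPM in αβ without AA and 1519, 1038 and 618 CPM with AA, and at 587, 411 and 645 and 473, 422 and 488 CPM in γδ. Its difference was −1.35 ± 0.42, and the list's median was −0.34 without both libraries numbered 3. Respiratory chain subunits encoded in the nucleus had a median of 0.17 and fatty acid oxidation genes 0.27, and neither kept its sign. With DESeq2's size factors they were at −0.16, with 11 of 33 positive, and −0.07, and the subunits were at −0.30 without both libraries numbered 3.

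**Figure D5:**
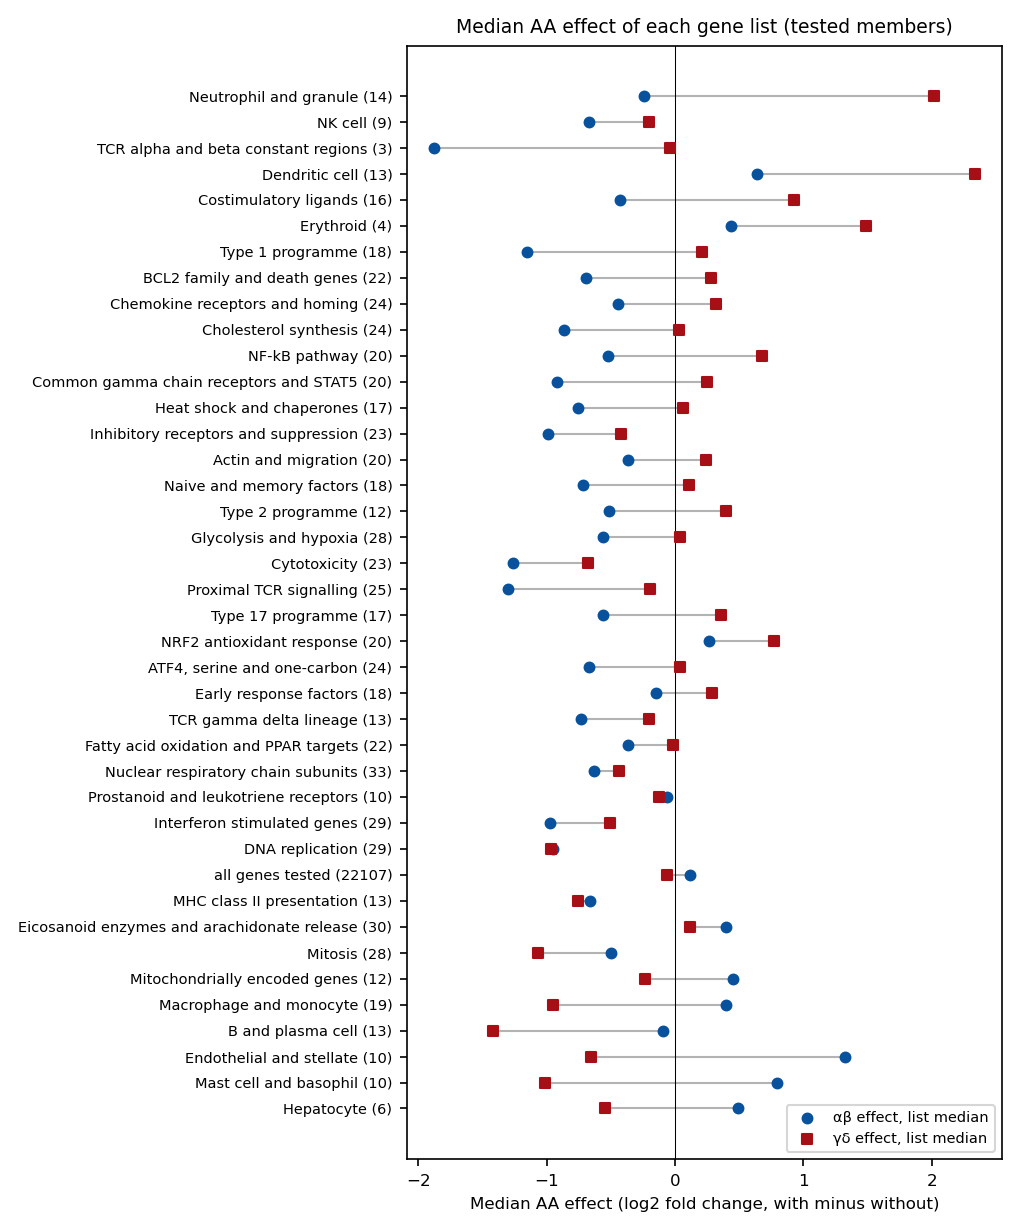
Median AA effect of each gene list as log2 fold change (horizontal axis), with αβ in blue and γδ in red, and tested members in brackets; lists are ordered by their median difference. The NF-κB, costimulatory, type 1 and common γ chain lists lie below 0 in αβ and above 0 in γδ, and mitochondrially encoded genes the reverse.

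DNA replication genes had like effects in both populations, with a median of −0.95 in αβ and −0.97 in γδ and 0 of 29 at an unadjusted p under 0.05 for the difference. Mitosis genes had medians of −0.50 and −1.06, and their median difference of −0.44 turned to 0.05 without both libraries numbered 3. Heat shock genes had 15 of 17 positive, against 48.0% of all genes, with a median of 0.94. Hsp90ab1, a cytosolic chaperone, was at 2119.7, 1971 and 2358 CPM in αβ without AA and 1636, 1343 and 1049 CPM with AA, against 1287, 2074 and 1842 and 1906, 1846 and 2289 CPM in γδ. Interferon-stimulated genes had a median difference of 0.16, or −0.13 with DESeq2's size factors, and genes of MHC class II presentation −0.09, the latter 0.61 without both libraries numbered 3.

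Effector genes of DN T cells gave wide errors. Il17a (ENSMUSG00000025929.4), the cytokine of type 17 cells, was at 779.9, 228 and 195 CPM in αβ without AA and 117, 45.1 and 215 CPM with AA, and at 106, 130.1 and 308 and 179, 249.7 and 566 CPM in γδ. The groups overlapped in both populations and the difference was 2.60 ± 0.95 (unadjusted p 0.0165, adjusted 0.451 by edgeR). Ifng, Prf1 and Fasl, of type 1 immunity and killing, had differences of 3.95 ± 3.01, 3.09 ± 1.58 and 2.94 ± 1.85, none at an unadjusted p under 0.05. Without αβ with AA replicate 2 those of Ifng and Prf1 were 9.50 and 5.60, and without γδ with AA replicate 3 that of Fasl was 1.96. Gzmb, a granzyme of a family with near-identical copies, had 0.62 ± 1.60 (0.27 without both libraries numbered 3), Il10, an anti-inflammatory cytokine, −0.66 ± 1.60, and the survival gene Bcl2 0.19 ± 0.70 (−0.25 without both). That of Il10 ran from −1.26 to −0.15 with 1 library left out. Trdc had 0.89 ± 1.82, and −3.53 without both libraries numbered 3. Lyz2, the lysozyme of myeloid cells, had −0.22 ± 1.29, and −3.03 without both. Of all genes tested, 48.0% had a positive difference. The type 1 list had 14 of 18 positive with a median of 1.30, and the type 17 list 14 of 17 with 0.59. The type 2 list had 8 of 12 positive with 0.84 and the cytotoxicity list 14 of 23 with 0.82. Without both libraries numbered 3 the last 3 medians were 1.15, 1.46 and 0.27, and with DESeq2's size factors 0.16, 0.56 and 0.41.

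A further group of genes went in the same direction in both populations but by unequal amounts. Dennd5a (ENSMUSG00000035901.14), an exchange factor of membrane traffic, was higher with AA in every library of both, at 90.7, 71.7 and 73.1 against 104, 102 and 93.6 CPM in αβ and 59.9, 61.7 and 36.3 against 216, 199.7 and 159 CPM in γδ. Its difference was 1.64 ± 0.42. Sema6d, a semaphorin, and Rnf152, a ubiquitin ligase of lysosomes, shared this shape, with differences of 3.19 ± 0.98 and 4.01 ± 1.48. Dok2 (ENSMUSG00000022102.13), an adaptor that dampens receptor signalling, was lower with AA in both, at 87.7, 66.8 and 129 against 38.9, 23.3 and 26.8 CPM in αβ and 160.4, 146 and 127 against 96.2, 115 and 97.4 CPM in γδ, and its difference was 1.33 ± 0.46. Rinl and Adgrg5, an adhesion receptor, were lower in both as well, with differences of 1.22 ± 0.41 and 3.82 ± 1.45. Adgrg5 was at 11.72, past the threshold, without αβ with AA replicate 2, and Rnf152 at 2.54 without γδ with AA replicate 3. These 6 genes had adjusted p of 0.442 to 0.467 by edgeR.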

How the data were processed

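The values are raw read counts of genes in 12 libraries made from total RNA, as the authors deposited them. Per the submitters' processing notes Bowtie 0.12.2 and the build mm8 were used; how reads were counted, and whether by strand, is not given in the sources used here, so overlapping genes and near-identical copies are uncertain. Symbols matched 55141 of 55401 identifiers. Libraries were grouped by their labels, and no replicate was a copy of another.

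Genes kept by filterByExpr (minimum count 10) were scaled by TMM and tested in edgeR 4.0.16 (R 4.3.3) with glmQLFit and glmQLFTest, all 12 libraries, a mean per group, 8 residual degrees of freedom and Benjamini-Hochberg adjustment over 22107 genes, with a threshold of 0.05. The common biological coefficient of variation was 1.21. The test was first run on simulated counts. Single libraries are given as CPM of all counts, in the order of replicates 1, 2 and 3, errors of log2 values as SE. Whether libraries overlapped was judged on these CPM, without the TMM factors, and may change with scaling. Intervals (exact, 95%) and the floor of 3 counts cover counting error only.

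The comparison, gene lists and named genes were chosen with earlier results of these data known. Named were, in each direction, 12 genes by smallest p (at least 5 CPM in the highest group, no predicted genes), 8 opposed genes in each orientation by size, 3 of unequal size in each shared direction, up to 3 per list by p, and a fixed set of T cell genes. Further list members were named for their roles after their values were seen. Some genes that the rule takes are left out of the text. Lists are described by counts and medians, without a test.

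Alternatives were DESeq2's size factors, library size alone, no filter, at least 5 CPM in 3 libraries, DESeq2 1.42.0, voom of limma 3.58.1 with quality weights, robust estimation, the replicate number as a block, libraries left out, and repeat genes left out.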

Additional observations from a re-analysis of the deposited data

How the results depend on the processing

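The count of genes past the threshold was 0 in 9 alternatives, 217 without a filter on low counts (124 higher and 93 lower in γδ) and 321 by DESeq2. With 1 library left out it ran from 0 to 48; the 48, all higher in γδ and among them Tbx21, Samsn1 and Wdr89, came without αβ with AA replicate 2, and 1 gene, Ramp3, without αβ without AA replicate 2. No pairing of libraries by replicate number is stated. Correlations of same-numbered deviations within a population were weak, from −0.04 to 0.14, and 7 of 12 libraries were most alike to their own number. These values do not settle whether the numbers pair the libraries. With the number as a replicate block the count stayed 0, shared by the populations or within each, with 1687 and 1172 genes at an unadjusted p under 0.05.

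The ranges over left-out libraries in the next values were chosen after the data were seen. At 100 CPM or more, the percent of genes with an unadjusted p under 0.05 and a higher effect in γδ was 16.0 as reported, 7.51 when scaled by DESeq2's factors, 9.996 when scaled by library size, 8.35 at 5 CPM in 3 libraries and 7.99 without both libraries numbered 3, and 10.4 to 20.01 with 1 library left out. For a lower effect it was 0.671, 2.56, 1.36, 2.08 and 2.21 in that order, and 0.636 to 1.89. Genes with effects of opposite sign were 40.1% to 46.9% with 1 library left out, and the correlation of effects −0.09 to 0.07. Fewer libraries make separation likelier: without both libraries numbered 3, 177 genes lay apart as higher in γδ and lower in αβ, 148 the reverse, 193 higher in both and 444 lower in both, and with 1 library left out 115 to 253, 67 to 239, 97 to 224 and 284 to 437. With the stricter filter the reverse orientation held 25 genes, fewer genes being tested.

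Among 88 genes followed, the sign turned in 4. Gzmb ran from −0.13, without αβ with AA replicate 3, to 1.39 with 1 library left out. Bcl2 was at −0.11 with DESeq2's size factors and by DESeq2, −0.088 with the stricter filter, −0.25 without both libraries numbered 3 and −0.18 to 0.68 with 1 library left out, −0.087 without γδ without AA replicate 3. Lyz2 ran from −2.59 to 0.96 with 1 library left out, positive in 5 cases (0.07, 0.17, 0.22, 0.23 and 0.96), and Trdc was at −3.53 without both and from −3.05, without αβ without AA replicate 3, to 1.39 with 1 library left out. Without both libraries numbered 3, list medians turned from 2.46 to −1.91 for neutrophil, 1.63 to −1.64 for erythroid, 0.56 to −0.19 for NRF2, 0.46 to −0.12 for γδ lineage, 0.17 to −0.44 for prostanoid receptor, 0.17 to −0.30 for nuclear respiratory chain, −0.44 to 0.05 for mitosis and −0.09 to 0.61 for MHC class II genes. With DESeq2's size factors they turned to −0.24 for DNA replication (0.09 as reported), −0.07 for fatty acid oxidation, −0.13 for interferon-stimulated, −0.16 for prostanoid receptor and −0.16 for nuclear respiratory chain genes. The cause of these turns was not tested. The median SE of the difference was 2.56 at 5 to 20 CPM and 0.50 at 100 CPM or more.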

Other observations

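Ectonucleotidases, which make adenosine outside the cell, lay on opposite sides. Nt5e, which encodes CD73, was at 48.5, 59.6 and 43.9 CPM in αβ without AA and 26.6, 12.9 and 3.48 CPM with AA, and at 45.6, 85.7 and 67.1 against 124, 166 and 65.9 CPM in γδ. Its difference was 2.90 ± 0.75. Entpd1, which encodes CD39, had a difference of −2.88 ± 1.23, from 19.1, 13.6 and 19.4 against 114, 45.7 and 21.9 CPM in αβ and from 32.8, 12.4 and 12.2 against 15.4, 7.71 and 0.692 CPM in γδ. The adjusted p was 0.442 for Nt5e and 0.495 for Entpd1 by edgeR, and both genes were chosen after their values were seen.

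The actin genes Actb and Actg1, often taken as references, had libraries apart in opposite directions. Actb was at 3288, 3374 and 4036 CPM in αβ without AA and 2788, 2896 and 2456 CPM with AA, and at 2889, 3858 and 3264 against 5539, 4319 and 4187 CPM in γδ. The difference was 1.03 ± 0.28 for Actb and 1.07 ± 0.35 for Actg1, with an adjusted p of 0.442 each by edgeR.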
